A study of Danio rerio with 2 samples.

Results

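Genes of DNA repair and of the DNA damage checkpoint were described in 2 RNA libraries from whole zebrafish embryos at 32 hours post fertilisation, grown at 28 °C. One library came from wild-type siblings (strain WT) and the other from supt16h-/- embryos (strain MUT), and the series was made to map the mutation by linkage. The sources used here give neither the mutated allele nor the number of embryos in each library. The product of supt16h is part of FACT, a histone chaperone that opens and rebuilds nucleosomes. Members were the loci of the authors' gene table with a symbol of a repair or checkpoint family. The families include rad, xrcc, fanc, msh, ercc, rpa, parp, atm, atr and chek. This choice by symbol reads no measured values, but it was made with earlier results of these data known. The rule found 88 of 34728 loci, under 86 distinct symbols, since atm and xrcc5 each stood at 2 loci.

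Cells recognise damaged DNA through the kinases ATM, which answers to double-strand breaks, and ATR, which answers to single-stranded DNA at stalled replication forks. The effector kinases CHK2 and CHK1 then hold the cell cycle, while separate pathways rejoin breaks, unlink crosslinked strands, correct mispaired bases or replace damaged ones. Many of these genes are transcribed most in dividing cells, and in the zebrafish embryo of this age dividing progenitors are abundant in the brain and retina.

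With 1 library per genotype there was no replicate, so values stand side by side with no test between genotypes. FPKM is a level scaled to transcript length and library size, and the sources used here do not give the number of reads behind each library. A locus was called measured at a mean of at least 1 FPKM over the libraries, and a difference is the log2 of the mutant value minus that of the sibling value, each with 1 FPKM added. Members are counted at 2-fold on that scale, which understates the change of low genes, while a fold given beside FPKM values is their plain ratio, so a gene such as atm or nbn can exceed 2-fold in the ratio and not in the count. In the authors' deposited table supt16h itself was listed at 44.4 FPKM in the sibling and 2.98 FPKM in the mutant library. Markers of skeletal muscle, neurons, red cells, epidermis, lens, heart, hatching gland and endothelium were present in both libraries. Their summed levels differed between the libraries, in sibling and mutant 62.8 and 280.1 FPKM for hatching gland, 51.6 and 125 FPKM for heart, 10757 and 16468 FPKM for skeletal muscle and 9076 and 12733 FPKM for epidermis. In the other direction they were 609 and 399 FPKM for lens, 3225 and 2308 FPKM for red cells, 309 and 183 FPKM for neurons and 20.2 and 11.4 FPKM for endothelium. The neuron difference was mostly that of elavl3, at 205 and 83.4 FPKM, while elavl4, snap25a and gap43 had differences of -0.19, -0.07 and 0.04. Of the endothelial genes, fli1a stood at 12.4 and 5.20 FPKM and kdrl at 5.17 and 3.33 FPKM, but cdh5 at 2.57 and 2.86 FPKM. Of 10 loci of proliferating cells, 5 were lower in the mutant, and their summed level was 2063 FPKM in the sibling and 1371 FPKM in the mutant library. Among them top2a stood at 73.6 and 19.4 FPKM and MKI67 at 98.6 and 43.1 FPKM, whereas cdk1 stood at 74.7 and 78.7 FPKM, and the 1 locus at 0 in a library was CCNB1 (2 of 2) in the sibling. How far the share of dividing cells, or of these tissues, entered the values below was not tested. In whole embryos, fewer cells of a type and less RNA per cell cannot be told apart.

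The repair and checkpoint members stood slightly lower in the mutant library across most pathways, and few stood far apart. Of the 88 loci, 82 were measured. Among these, 61 were below 0 and 21 above 0, a share of 74.4% lower, beside 49.9% of all 20638 measured loci. The median difference was -0.31, beside 0.0012 over all measured loci, and the interquartile range of the members ran from -0.56 to 0.01. In the mutant library 2 measured members stood lower by 2-fold or more (2.44%, beside 8.36% of all measured loci), and 1 stood higher by 2-fold or more (1.22%, beside 6.75%). Summed over the member loci with a single symbol, the level was 1323 FPKM in the sibling and 1055 FPKM in the mutant library, or 79.7% of the sibling. A further 27 loci of the same families are listed in capitals and lie outside the rule. Of 22 measured, 13 were below 0 (59.1%), with a median of -0.19, nearer to all measured loci than the members were. Members and these loci together had 74 of 104 below 0 (71.2%) and a median of -0.25.

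Of the 81 members of status OK in the authors' deposited table, Cuffdiff called 0 different, beside 0.469% of the 20044 loci of that status. At an unadjusted p under 0.05 that table holds 1 member, parp3 (1.23% of the members of status OK, beside 6.43% of all such loci). The standard error implied by the authors' statistic had a median of 0.72 on the log2 scale over the measured members, and 68 of 81 differed by no more than 1 such error. Those p and q values compare the libraries, not the genotypes.

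**Figure D1:**
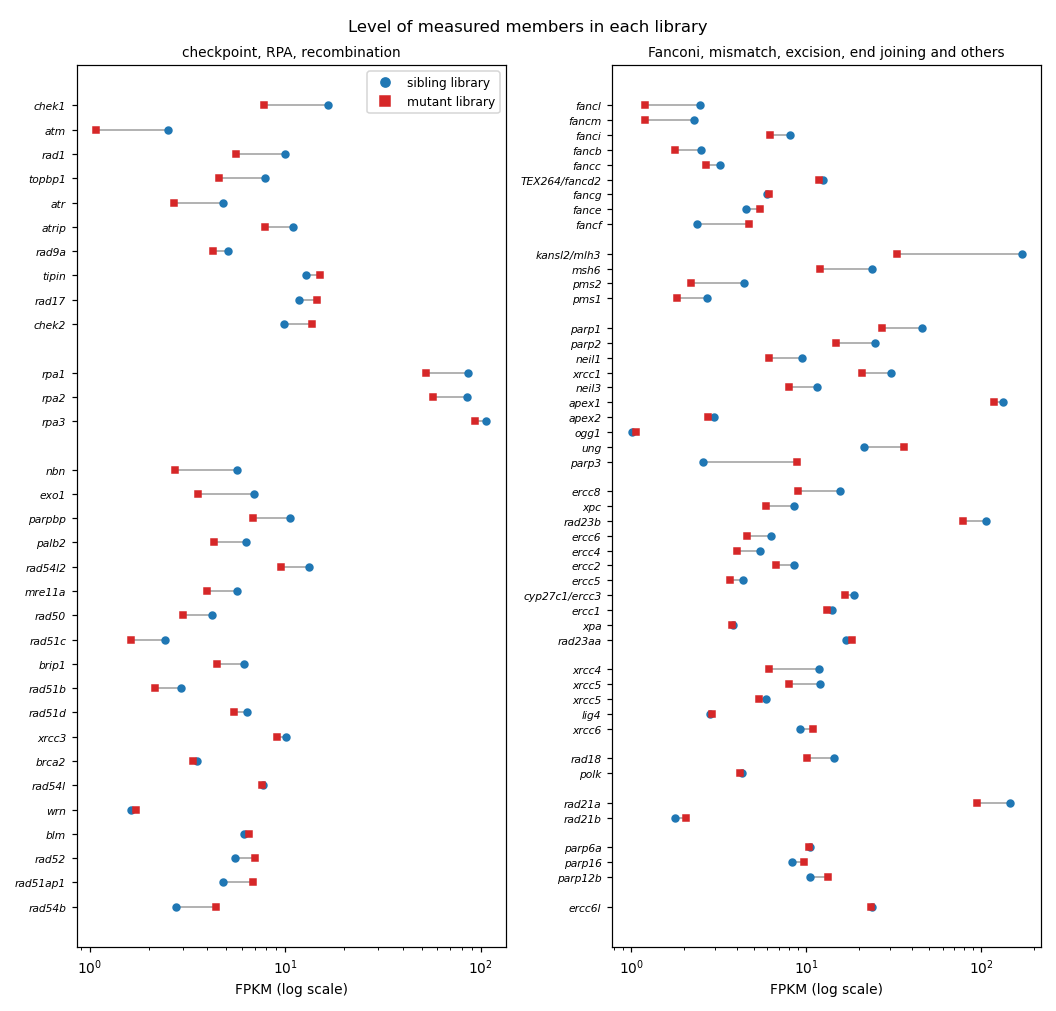
Level of 79 of the 82 measured members in the sibling (blue circles) and the mutant library (red squares), in FPKM on a log axis, grouped by role and ordered within a role by the difference. Most red squares lie to the left of the blue circle of the same gene, and parp3, at 2.57 and 8.82 FPKM, has the widest gap in the other direction.

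Of the 10 measured checkpoint members in the rule, 7 were below 0, and the median was -0.54. In the ATR arm the genes chek1, atr, atrip and topbp1 were all lower in the mutant library. The effector kinase gene chek1 (chromosome 21, 21673130 to 21680464 on Zv9) stood at 16.6 FPKM in the sibling and 7.79 FPKM in the mutant, 2.13-fold lower. Its difference of -1.001 placed it at the 2-fold line, and its log2 change in the authors' deposited table was -1.09 with an implied standard error of 0.77. The kinase gene atr stood at 4.82 and 2.70 FPKM, and atrip, whose product carries ATR to single-stranded DNA, at 11.0 and 7.88 FPKM. In the authors' deposited table the log2 changes of atr and atrip were -0.84 and -0.48. Each was smaller than its implied standard error, 1.54 and 0.96. The ATR activator topbp1 stood at 7.91 and 4.58 FPKM, and shares its coordinates with another locus. Claspin, the adaptor through which ATR reaches CHK1, is listed in capitals and so lies outside the rule. Both its copies were lower, CLSPN (2 of 2) at 30.3 and 15.4 FPKM and CLSPN (1 of 2) at 23.4 and 12.1 FPKM. The checkpoint gene etaa1, also outside the rule, was higher in the mutant library, at 4.27 and 8.18 FPKM. Its log2 change in the authors' deposited table was 0.94 with an implied standard error of 0.65.

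Of the clamp that brings the activator to ATR, the measured members rad1 and rad9a were both lower in the mutant. The subunit gene rad1 stood at 9.96 and 5.60 FPKM and rad9a at 5.09 and 4.29 FPKM. The gene of the clamp loader, rad17, was higher, at 11.7 and 14.5 FPKM. Its log2 change in the authors' deposited table was 0.31 with an implied standard error of 0.60. The second clamp gene rad9b was at 0 FPKM in both libraries. The fork protection partners also differed in direction, with tipin at 12.8 and 15.0 FPKM and TIMELESS, listed in capitals, at 14.8 and 9.35 FPKM. TIMELESS and tipin share their coordinates with other loci, so their values are less certain.

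In the ATM arm the kinase and its effector stood on opposite sides. The 2 atm loci lie 44609 bases apart on chromosome 15. The first (6400028 to 6503351) stood at 2.52 and 1.08 FPKM, 2.34-fold lower in the mutant, and the second (6547960 to 6579129) at 0.998 and 0.432 FPKM, 2.31-fold lower. The mutant level was thus 42.8% and 43.3% of the sibling level at the 2 loci, although the second fell under the limit for measured loci and the log2 change of the first in the authors' deposited table was -1.22 with an implied standard error of 0.65. The effector kinase gene chek2 was higher, at 9.86 and 13.8 FPKM, and shares its coordinates with another locus. Of the chromatin-bound mediators, both listed in capitals, MDC1 was slightly higher at 4.82 and 5.49 FPKM and TP53BP1 lower at 12.4 and 8.53 FPKM.

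Replication protein A, the trimer that coats single-stranded DNA and calls ATR to it, was encoded by abundant transcripts. The large subunit rpa1 stood at 86.3 and 52.3 FPKM, the middle subunit rpa2 at 85.1 and 57.0 FPKM and the small subunit rpa3 at 107 and 93.9 FPKM. All 3 were lower in the mutant library, with differences of -0.71, -0.57 and -0.19. The levels of the 3 transcripts thus lay further apart there than in the sibling library, but this spread was not tested. In the authors' deposited table the implied standard errors of their log2 changes were 0.72, 0.72 and 0.61.

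Homologous recombination, which copies an intact sister strand to mend a break, gave members on both sides of 0. Of 20 measured members 14 were below 0 and 6 above, with a median of -0.25. On the log2(FPKM + 1) scale 0 were 2-fold apart, beside 8.36% of all measured loci lower and 6.75% higher. The genes of break recognition and end resection stood lower. These were nbn at 5.65 and 2.72 FPKM, mre11a at 5.70 and 3.96 FPKM and rad50 at 4.23 and 2.98 FPKM, which together encode the complex that binds broken ends, and the exonuclease gene exo1 at 6.89 and 3.57 FPKM. The members above 0 included the cofactor gene rad51ap1, at 4.81 and 6.87 FPKM, and the motor protein gene rad54b, at 2.77 and 4.40 FPKM. Another motor, rad54l, stood at 7.69 and 7.57 FPKM, and rad52, an annealing factor, at 5.51 and 7.02 FPKM.

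The mediator brca2, which loads the recombination filament on DNA, was nearly level at 3.52 and 3.37 FPKM, while its partner palb2 stood at 6.30 and 4.30 FPKM. Genes whose products steady the filament were lower by small amounts, rad51b at 2.93 and 2.17 FPKM, rad51c at 2.43 and 1.63 FPKM, rad51d at 6.34 and 5.45 FPKM and xrcc3 at 10.1 and 9.07 FPKM. A further gene of that family, XRCC2, is listed in capitals and went the other way. It stood at 0.498 FPKM in the sibling and 2.12 FPKM in the mutant, a difference of 1.06. The log2 change of XRCC2 in the authors' deposited table was 2.09 with an implied standard error of 1.18, and it was not called. The helicases that take apart joined strands were level, blm at 6.16 and 6.51 FPKM and wrn at 1.63 and 1.72 FPKM. The values of blm, rad51d and rad51c, which share their coordinates with other loci, are less certain, with implied standard errors of 2.16, 3.19 and 1.47. The helicase gene brip1 stood at 6.12 and 4.47 FPKM, and parpbp, whose human product restrains recombination, at 10.6 and 6.85 FPKM. The rule also took in rad54l2, a relative of rad54 known in mammals as a cofactor of nuclear receptors, at 13.3 and 9.55 FPKM. The count and median of the recombination members include it.

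The Fanconi anaemia genes, whose products free DNA strands tied by a crosslink, were spread around 0. Of 9 measured members 6 were below 0 and 3 above, with a median of -0.20. The ubiquitin ligase gene fancl stood at 2.47 and 1.20 FPKM and the DNA translocase gene fancm at 2.27 and 1.20 FPKM. Of these, fancl shares its coordinates with vrk2 (implied standard error 1.61). Within the core complex fancb (2.49 and 1.78 FPKM) and fancc (3.21 and 2.67 FPKM) stood lower, whereas fancg (5.99 and 6.12 FPKM), fance (4.53 and 5.43 FPKM) and fancf (2.38 and 4.70 FPKM) did not. The difference of fancf, 0.75, was the largest of the Fanconi genes, and its log2 change in the authors' deposited table was 0.98 with an implied standard error of 0.71. FANCA, in capitals, was level at 4.08 and 4.06 FPKM. The target of the core complex is a ubiquitinated pair. Of these, the locus shared by fancd2 and TEX264 (2 of 2) differed little, at 12.4 and 11.8 FPKM. The other, fanci, stood lower at 8.13 and 6.18 FPKM (difference -0.35). It shares its coordinates with polg (implied standard error 1.43).

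Mismatch repair corrects bases that the replicating polymerase mispaired. All 6 measured members were below 0, with a median of -0.66. Both the count and the median include the locus shared by kansl2 and mlh3, described below, whose value cannot be assigned to mlh3. The MutS subunit gene msh6, whose product is part of the main mismatch sensor, stood at 23.6 and 11.9 FPKM. The difference of msh6 was -0.93, just short of 2-fold, and the gene shares its coordinates with fbxo11a (implied standard error 2.0). Of the MutL genes, pms2 stood at 4.40 and 2.2 FPKM and pms1 at 2.73 and 1.82 FPKM. The locus of pms1 shares its coordinates with 2 others (implied standard error 2.02).

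The sensor subunit for longer loops, msh3, went against the rest. It was under the limit for measured loci, at 0.287 FPKM in the sibling and 1.36 FPKM in the mutant, 4.75-fold higher. A second locus in capitals, MSH3 (2 of 2), was also higher in the mutant, at 1.62 and 3.53 FPKM. The largest difference of the members, -2.33, belonged to a locus on chromosome 23 (24876971 to 24896833) that carries both kansl2, a histone acetyltransferase subunit, and mlh3, a MutL gene also used in meiosis. It stood at 169.9 FPKM in the sibling and 33.0 FPKM in the mutant. The table does not divide this value between the genes, the implied standard error of its log2 change was 2.71, and nothing here assigns it to mlh3. Without the loci that carry several symbols, 1 of 79 measured members, chek1, passed 2-fold on the lower side of the log2(FPKM + 1) scale. Of all measured loci, 8.36% did.

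**Figure D2:**
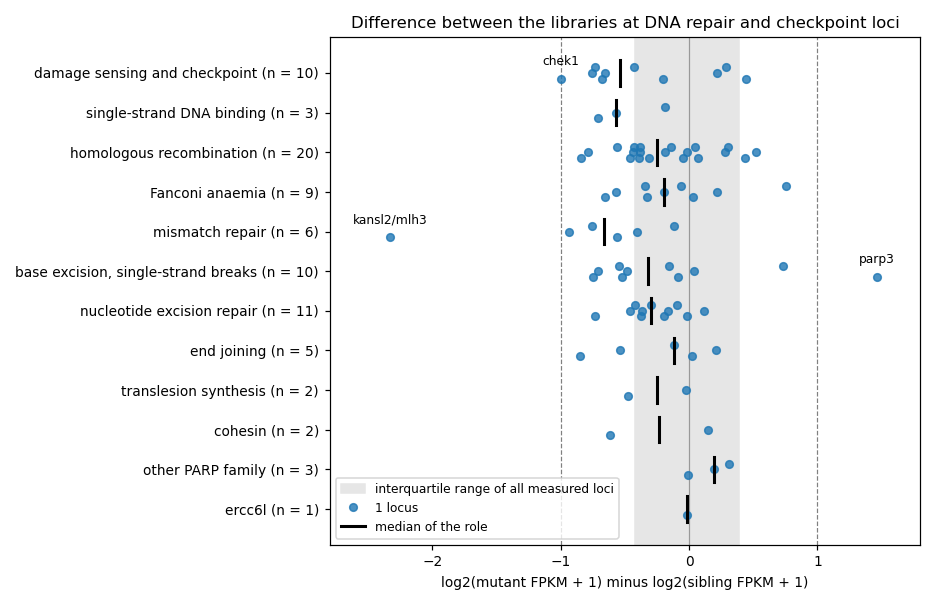
Difference of each measured member by role, mutant minus sibling on the log2(FPKM + 1) scale, with 1 point per locus, a black bar at the median of the role, the grey band for the interquartile range of all measured loci and dashed lines at 2-fold. The medians of mismatch repair (-0.66), single-strand DNA binding (-0.57) and the checkpoint (-0.54) lie left of the band, and parp3, chek1 and the kansl2/mlh3 locus lie at or past the dashed lines. The mismatch repair median includes the kansl2/mlh3 locus, whose value cannot be assigned to mlh3.

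Base excision and single-strand break repair replaces single damaged bases and seals nicks. Of 10 measured members 7 were below 0, with a median of -0.32, but the members that were higher included the 1 gene past 2-fold. That gene, parp3, encodes a poly(ADP-ribose) polymerase that is known in human cells to act at strand breaks and in end joining. It stood at 2.57 FPKM in the sibling and 8.82 FPKM in the mutant library, 3.44-fold higher, a difference of 1.46. In the authors' deposited table its log2 change was 1.78 with an implied standard error of 0.62, an unadjusted p of 0.00416 and q = 0.269, so it was not called. The main nick sensors of the same family were lower, parp1 at 46.1 and 27.1 FPKM and parp2 at 24.7 and 14.7 FPKM. The scaffold gene xrcc1, which gathers the sealing enzymes at a nick, stood at 30.4 and 20.9 FPKM.

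Among the glycosylases, which cut out damaged bases, ung removes uracil and was higher in the mutant, at 21.5 and 36.3 FPKM (difference 0.73). The enzymes for oxidised bases were lower or level, neil1 at 9.44 and 6.13 FPKM, neil3 at 11.5 and 7.95 FPKM and ogg1 at 1.01 and 1.06 FPKM. The nuclease gene apex1, which cuts the strand after a base is removed, was abundant and nearly level at 132 and 118 FPKM, though its implied standard error was 2.21. Its relative apex2 stood at 2.96 and 2.73 FPKM. Of the ligases, both in capitals, the replicative LIG1 stood at 42.2 and 24.4 FPKM. LIG3, which shares its coordinates with rad51d, stood at 45.6 and 39.6 FPKM.

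Nucleotide excision repair, which removes bulky lesions such as those of ultraviolet light, was lower by small amounts in nearly every member. Of 11 measured members 10 were below 0, with a median of -0.30. The widest difference was that of ercc8, needed for repair of transcribed strands, at 15.6 and 8.99 FPKM (difference -0.74). Its partner ercc6 stood at 6.29 and 4.61 FPKM and the lesion sensor xpc at 8.47 and 5.88 FPKM. The unwinding and cutting enzymes differed less, with ercc2 at 8.48 and 6.70 FPKM, ercc4 at 5.46 and 4.01 FPKM, ercc5 at 4.36 and 3.67 FPKM and ercc1 at 14.1 and 13.1 FPKM. Of these, ercc5 shares its coordinates with blzf1 (implied standard error 2.35). The verification factor xpa was level at 3.81 and 3.75 FPKM, and the ercc3 locus, which also carries cyp27c1, stood at 18.8 and 16.6 FPKM. The xpc partners rad23b and rad23aa stood at 106 and 78.7 FPKM and at 16.8 and 18.3 FPKM.

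End joining ligates broken ends without a template. The scaffold gene xrcc4 stood at 11.9 and 6.12 FPKM (difference -0.85), while lig4, the ligase that its product binds, was level at 2.83 and 2.88 FPKM. The Ku subunit genes, which clasp the ends, stood at 12.0 and 7.97 FPKM and at 5.91 and 5.36 FPKM for the 2 xrcc5 loci and at 9.27 and 10.9 FPKM for xrcc6. Translesion synthesis carries replication past a lesion. Its ubiquitin ligase gene rad18 stood at 14.4 and 10.1 FPKM, the polymerase gene polk at 4.27 and 4.19 FPKM, and POLH, in capitals, at 5.12 and 7.72 FPKM.

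The spelling of the rule also admitted genes whose main work lies elsewhere. The cohesin subunit gene rad21a, needed to hold sister chromatids together, stood at 146 and 94.7 FPKM, rad21b at 1.77 and 2.07 FPKM, and RAD21 (3 of 3), in capitals, at 81.2 and 47.0 FPKM, while rad21l1 was at 0 FPKM in both libraries. The locus of rad21a shares its coordinates with 3 others (implied standard error 1.16). The other PARP family genes parp6a, parp16 and parp12b had differences between -0.01 and 0.31, and parp6b and parp12a were below the limit for measured loci. The mitotic helicase gene ercc6l was level at 23.7 and 23.3 FPKM. Without these the median of the remaining 76 measured members, which still include rad54l2, was -0.34.

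**Figure D3:**
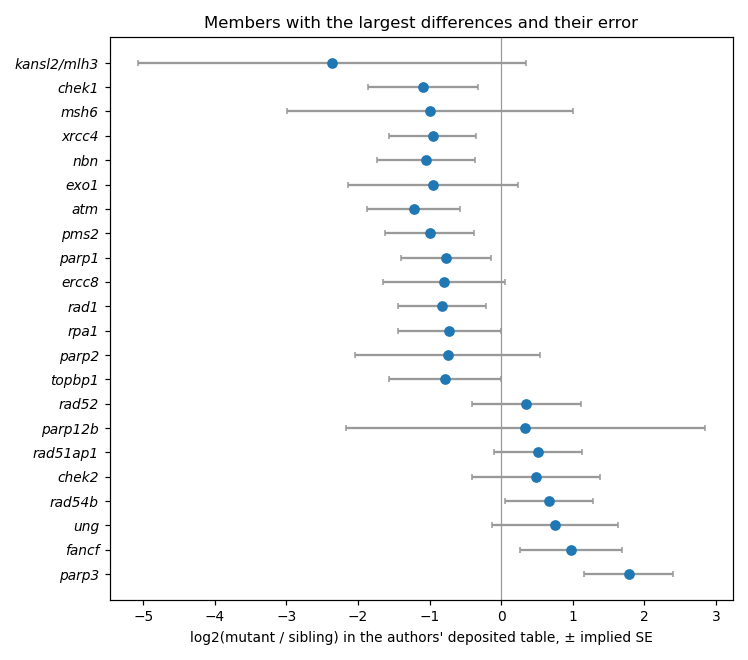
Log2 ratio of mutant to sibling in the authors' deposited table for the 14 measured members of status OK with the lowest and the 8 with the highest difference on the log2(FPKM + 1) scale, with bars of 1 implied standard error. The bar of parp3 (1.78, standard error 0.62) stays clear of 0. So do others, such as those of chek1 (-1.09, standard error 0.77), atm (-1.22, standard error 0.65) and fancf (0.98, standard error 0.71). Further bars cross 0, such as that of kansl2/mlh3 (-2.36, standard error 2.71). A bar of 1 implied standard error that is clear of 0 is no test of a difference.

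The lower values were not limited to rare or to abundant transcripts. At a mean of 1 to 5 FPKM 21 of 28 members were below 0, at 5 to 20 FPKM 30 of 43, and at 20 FPKM and above 10 of 11, beside 49.5%, 52.0% and 46.7% of all measured loci in the same ranges. The member medians in these ranges were -0.20, -0.30 and -0.52. The 1 abundant member above 0 was ung.

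A wider set of 152 loci outside the rule was taken from lists of repair, checkpoint, replication-linked and cohesin genes. It thus reaches beyond the repair pathways of the members. These lists too were chosen with earlier results of these data known. Of 146 measured loci 107 were below 0 (73.3%), with a median of -0.34. Among the measured loci of the set 10 stood lower by 2-fold or more (6.85%) and 1 higher (0.685%), beside 8.36% and 6.75% of all measured loci. Of the 10, 7 came from the list of cohesin genes, and ctcf on that list is 1 of them. The other 3 came from the list of checkpoint and signalling genes. In the wider set 0 of 146 of status OK were called in the authors' deposited table, beside 0.469% of all loci of that status. There 3 of the 146 had an unadjusted Cuffdiff p under 0.05 (dbf4, smc1al and WAPAL (1 of 2)), a smaller share than the 6.43% of all such loci. All 14 replication-linked repair loci were below 0, with a median of -0.51, and they included the sliding clamp gene pcna (648 and 330 FPKM) and the chromatin assembly gene chaf1a (47.0 and 23.1 FPKM). The other excision repair genes were balanced, with 17 of 32 below 0 and a median of -0.03.

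Of 30 other checkpoint and signalling genes 24 were below 0 (median -0.44). The damage-marking histone gene h2afx stood at 113 and 51.4 FPKM, dbf4, the activator of the origin-firing kinase, at 14.01 and 5.94 FPKM, and wdr76 in the other direction at 8.11 and 17.3 FPKM. The list of cohesin genes other than rad21, which also holds ctcf, had the lowest median of the 8 lists, -0.92 over 18 measured loci. Of the 18, 7 stood lower by 2-fold or more (38.9%, beside 8.36% of all measured loci). The ring subunit gene smc1al stood at 72.0 and 25.9 FPKM, the boundary factor gene ctcf at 65.4 and 23.8 FPKM and the regulator pds5b at 30.2 and 12.1 FPKM, whereas cdca5, which protects cohesion, stood at 52.4 and 69.3 FPKM. In the authors' deposited table the log2 changes of smc1al, ctcf and pds5b were -1.47, -1.46 and -1.31. Their implied standard errors were 0.64, 1.59 and 0.72. For pds5a, also among the 7, the change was -1.12 and the error 3.72. The remaining lists had medians of -0.38 over 26 recombination loci, -0.17 over 11 Fanconi and crosslink loci, -0.25 over 5 end joining loci and -0.07 over 11 translesion loci.

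**Figure D4:**
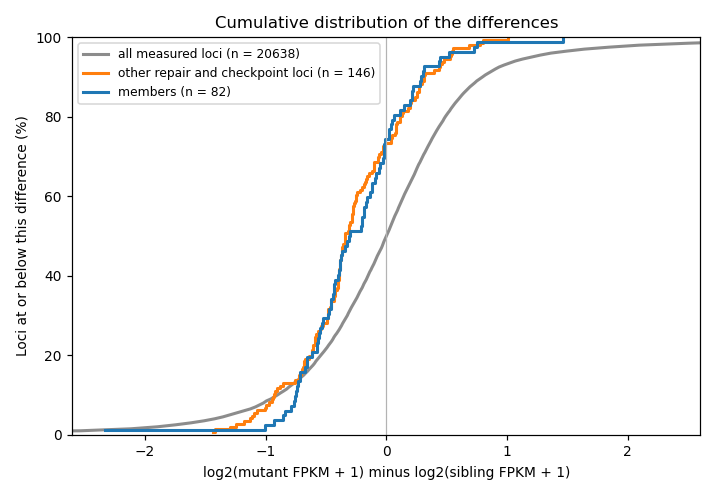
Cumulative percentage of loci at or below each log2 difference for the 82 measured members (blue), 146 loci of the wider set (orange) and all 20638 measured loci (grey). The wider set includes cohesin and replication-linked genes. Both coloured lines lie above the grey one at 0, where 74.4%, 73.3% and 49.9% of loci are lower in the mutant, and the blue line is steeper, with 65.9% of members within 0.5 of 0 beside 58.9% of all measured loci.

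Some member values depend on how reads were divided. At 25 of the 88 loci the table lists another locus with identical coordinates, and 3 loci carry more than 1 symbol. Only some of the 25 are marked as such above. The implied standard error had a median of 1.16 among measured members that share coordinates and 0.64 among those that do not. The 23 measured members that share coordinates had a median difference of -0.38, and the 59 with coordinates of their own a median of -0.20, beside -0.03 and 0.01 for all measured loci of the same kinds. The difference between these values was not tested.

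The members lay on 24 chromosomes or scaffolds, and few lay close together. On chromosome 6, rad18, parp3 and the fancd2 locus followed each other with gaps of 150943 and 96821 bases, and their differences were -0.48, 1.46 and -0.06. The loci within 50 kb of parp3 (41969221 to 41980214) that were measured, cav3 at 215 and 277 FPKM and GRM2 (1 of 2) at 1.70 and 1.67 FPKM, differed less than parp3 did. Around pms2 on chromosome 12 the neighbours were lower with it, the eif2ak1 and usp42 locus at 18.4 and 8.65 FPKM and dlgap5 at 44.8 and 22.8 FPKM. The chromosome that carries supt16h, 7, held 1 member, tipin.

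The deposited variant table names no source library. It listed 20 sites in 10 member genes among 7447 sites in all. Each was given as homozygous, with 2 to 65 reads. The gene brca2 held 9 of the 20 sites, on chromosome 15, of which 4 change the protein and 5 do not, at a coverage of 7 to 41 reads. In the codon numbering of that table, its changes are A107T (14 reads), E1040K (7 reads), E1183D (13 reads) and A1257T (8 reads), written as the reference residue, the codon and the changed residue. The helicase gene blm held G429R (16 reads) and Q598H (18 reads) in the transcript ENSDART00000110746, polk held R182Q (17 reads) and fancb A281V (8 reads).

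The further changes R441G in msh3 and L461V in pms2, rested on 2 reads each. An insertion in brip1 at codon 193 had 28 reads and a quality score of 215, and a frame shift in parpbp at codon 451 had 65 reads but a score of only 28.7. The remaining sites were 2 synonymous ones in xrcc5 and 1 exonic insertion in parp12b. Of the 17 single-base coding sites in members 58.8% change the protein, beside 41.5% in the whole table. Whether any of these sites differs between the genotypes was not tested, since the table names no library.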

How the data were processed

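RNA of 1 library per genotype was compared. Per the labels' protocols, polyadenylated RNA was made into stranded libraries and read as pairs. Tools listed in the submitters' processing notes, without roles, are TopHat2 2.1.1, CASAVA 1.8, Cuffdiff and Cufflinks 2.2.1, with the Zv9 build. FPKM values, and the log2 changes, test statistics, p-values and q-values of Cuffdiff, were taken unchanged from the authors' deposited table. Per the file headers, SnpEff 3.1k annotated the variants, with a quality score and a coverage (count of reads) per site as deposited. No source used here gives the variant caller.

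Differences were computed with 1 FPKM added, over loci of a mean of at least 1 FPKM and any status but FAIL. The implied standard error is the authors' log2 change divided by their statistic. Of the member loci, 6 were below the limit, and the values of 3 others are not reported here. The counting at 2-fold was checked on simulated data, with large known changes placed only at well expressed loci. That check does not cover low genes or genes near the 2-fold line. The FPKM were not rescaled. Coordinates are those of the deposited table. Members and lists were chosen with earlier results of these data known. Named were members 2-fold apart, the extremes and the most abundant of each role, and others chosen after their values were seen. Alternatives were other pseudocounts, limits, scalings and member sets. Tools were Python 3.11.15, pandas 2.3.3, numpy 2.4.6 and matplotlib 3.10.9.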

Additional observations from a re-analysis of the deposited data

How the results depend on the processing

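The median member difference of -0.31 was below 0 under all 11 alternatives. It moved by over 1.5 times to -0.16 with 5 FPKM added, to -0.20 with no limit on the mean, and to -0.20 over the 57 members with 1 symbol and coordinates of their own, an alternative chosen after seeing the data. The count of members at least 2-fold lower, 2 in the main setting, was 4 with 0.1 FPKM added, 1 with 5 FPKM added, 1 after scaling to equal medians, 1 over loci with 1 symbol only and 1 with coordinates of their own. The share of all measured loci that were at least 2-fold lower moved too. It was 8.36% in the main setting, 11.1% with 0.1 FPKM added, 3.86% with 5 FPKM added and 7.95% after scaling to equal medians. The count at least 2-fold higher, 1 in the main setting, was 0 with 5 FPKM added, beside 2.99% of all measured loci. With symbols in any letter case, which adds XRCC2, it was 2, beside 6.75%. The difference of chek1 lies at the 2-fold line, so its call rests on the setting. Scaling to equal sums, a shift of 0.09, gave 3 members at least 2-fold lower, beside 9.51% of all measured loci. With that scaling 66 of 82 members were below 0, beside 55.3% of all measured loci. Scaling to equal medians gave 57 of 82, beside 48.5%. Of 328 single-gene values under 4 settings, 325 stayed within 1 implied standard error of the main value, or 1.5 times where there was none. The 3 that moved were all of ogg1, which has no implied standard error, and 9 changed sign, none of a gene past 2-fold. This limit is loose, since 68 of 81 members were themselves within 1 implied standard error of 0. With 5 FPKM added, atm went from -0.76 to -0.31 and still counted as within it. These counts therefore do not show that the differences are stable. No paired analysis was possible because each genotype has 1 library. With no replicates and no read totals, differences of single genes cannot be set against variation between embryos.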
